A study of Mus musculus with 29 samples.

Results

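Desmosomes are the spot junctions that anchor the keratin filaments of an epithelial cell to those of its neighbors. Desmogleins and desmocollins, the desmosomal cadherins, span the gap between cells; plakoglobin (Jup) and the plakophilins (Pkp1, Pkp2, Pkp3) bind their tails; and desmoplakin (Dsp) ties that plaque to keratin. Perp is a tetraspan membrane protein of the same junctions and a target of p63. In stratified epithelia Dsg2, Dsc2 and Pkp2 are known as the widely expressed members of their families, while Dsg3, Dsc3 and Pkp1 are typical of basal and squamous layers. The 10 genes followed here (Dsg2, Dsg3, Dsc2, Dsc3, Dsp, Pkp1, Pkp2, Pkp3, Jup and Perp) were taken by symbol from each table, and all 10 were among its 35199 genes and were tested in every comparison.

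RNA-seq was done on mouse bladder in which an activated form of the nuclear receptor Pparg, fused to the VP16 activation domain, was switched on in Krt5-expressing basal cells by a tamoxifen-inducible Cre (K5VP16;Pparg). Adult mice were studied 4 days after induction, as Gfp-positive sorted cells of 4 controls, labelled wild type, and 5 mutants, labelled K5VP16;Pparg+/-, neither given carcinogen. The paper names these controls K5;mTmG and these mutants K5VP16;Pparg;mTmG, both with the lineage reporter mTmG. Tumors were raised with the bladder carcinogen BBN, 0.05% in drinking water for 5 months in all, with tamoxifen after the first month, and were collected by laser capture 4 months after induction. Of these, 3 basal tumors came from mice labelled wild type, and the paper names its control tumors as VP16;Ppargfl/fl or K5;mTmG. From K5VP16;Pparg+/- mice came 3 luminal tumors and, from lesions of mixed type, 3 luminal and 3 basal-like domains. The inducible Cre and the sort for Gfp were meant to limit the 4-day groups to cells descended from Krt5-expressing cells, although transcripts of fibroblasts and leukocytes were present in them, and the transgene is a gain of function, not the native gene. Which captured libraries share an animal is not given in the labels, so p-values between captured groups may be too small where libraries of a group share an animal, or too large where both domains of a lesion were captured, and all p-values measure the spread between these libraries alone.

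Values are the deposited normalized counts, and each table was normalized on its own, so groups were compared only within a table. Fold changes are on the scale of log2(normalized count + 1), and a gene was called when its adjusted p from limma, over all genes tested in that table, was under 0.05. Library totals ran from 36520193 to 41435665 normalized counts in the 4-day table and from 41697178 to 53252995 in the tumor table, but the depth in reads is unknown. Libraries are numbered within their group by the order of the columns, as names alone.

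Checks of genotype and tissue came first. Pparg measured 9617, 9999, 9821 and 9381 normalized counts in the 4-day controls and 6646, 9032, 6111, 7863 and 8458 in the mutants, so the transgene was not visible as a rise of Pparg. Fabp4, a direct target of Pparg, was at 327, 449, 207 and 467 in controls and at 30598, 7617, 4969, 5904 and 6934 in mutants (log2 fold change 4.64 ± 0.49 SE, limma adjusted p = 0.00171), and the call was kept in all 9 fits with a library left out. With the Y-linked level as a covariate the Fabp4 call was lost, at a fold change of 4.86 and a limma adjusted p of 0.109; over the 9 settings other than a left-out library that p ran from 3.45e-04 to 0.109. In tumors Pparg was at 126, 13.0 and 102 in the basal group and at 7216, 8632 and 3579 in luminal tumors, a called rise of 6.74 ± 0.80 SE (limma adjusted p = 0.0135), lost without luminal tumor library 1 or 2 (limma adjusted p = 0.0879 and 0.0814). Fabp4 overlapped there, at 1082, 75.5 and 48304 in basal and 31727, 310097 and 197271 in luminal tumors. It was not called (6.30 ± 2.17 SE, limma adjusted p = 0.172). The sorted cells held basal markers, with a summed level of 136042 to 172436 in controls led by Krt5, but also superficial markers, with a summed level of 143627 to 314642 led by Upk1a. Y-linked genes summed to 404 in control library 1 and to 9030, 9177 and 9046 in the other controls, against 338 to 395 in the mutants; sex is not in the labels, and genotype and Y-linked level cannot be told apart beyond that 1 control.

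The first comparison asked what the activated receptor did to desmosome genes within days of its induction, and none of the 10 was called, with 2.85% of all genes called. At an unadjusted limma p under 0.05 there was 1 of 10 members against 3418 of 16413 genes. The median log2 fold change of the members was 0.13, or 0.07 over the 9 without the barely detected Dsc3, against 0 over all genes tested. No member separated the groups, where 9.18% of all genes did.

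**Figure D1:**
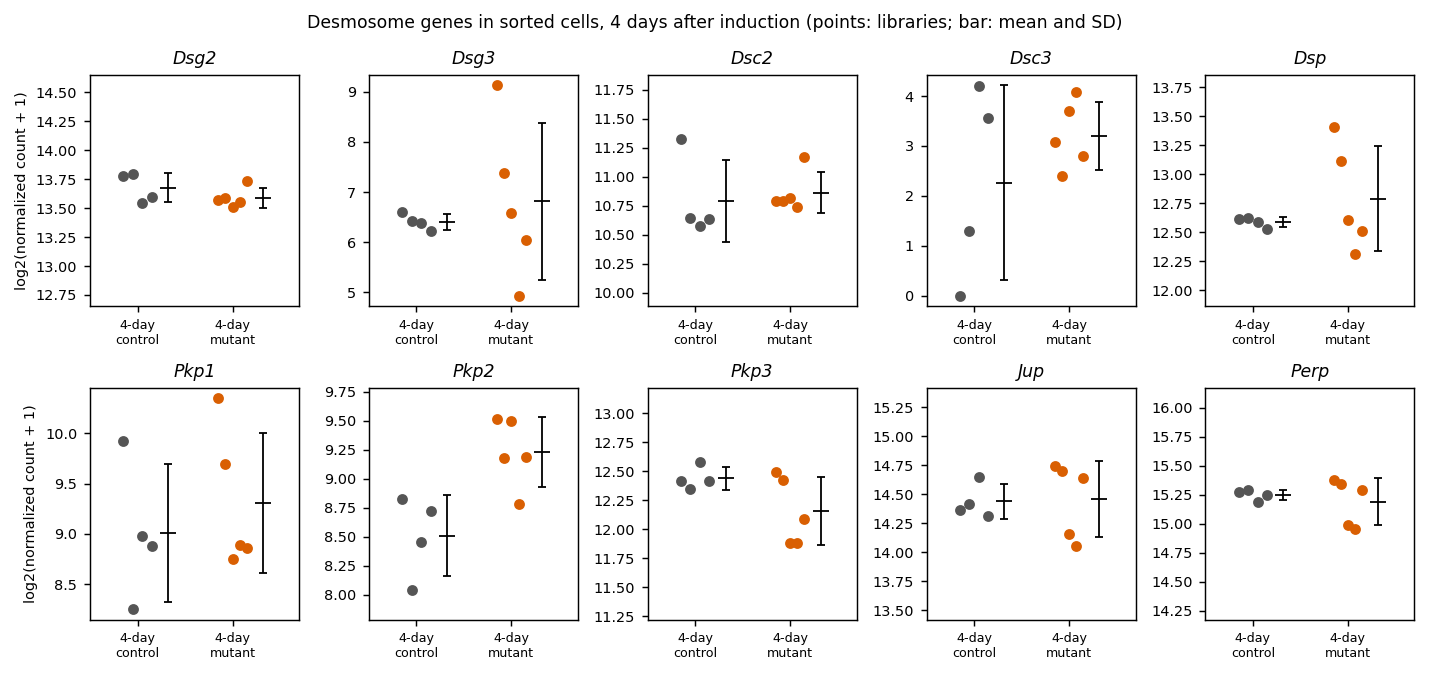
Each panel plots log2(normalized count + 1) of a desmosome gene in the 4 control and 5 mutant libraries of sorted cells, with a panel-specific axis; points are libraries and the bar beside them is the mean and SD. Control and mutant points overlap in all 10 panels, and Dsg3 in mutant library 1 stands at 560 normalized counts.

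Among the cadherins, Dsg2, the desmoglein of simple and stratified epithelia, measured 14001, 14171, 11927 and 12372 normalized counts in controls and 12139, 12291, 11671, 11979 and 13657 in mutants. Its log2 fold change was -0.09 with a 95% interval of -0.28 to 0.11. Dsg3, the desmoglein of basal and squamous cells, was at 96.3, 84.4, 83.0 and 73.6 in controls and at 560, 165, 95, 29.5 and 64.9 in mutants. Mutant libraries 1 and 2 were above every control and libraries 4 and 5 below every control, so the mutants were more spread than the controls without a common direction (0.40 ± 0.69 SE, limma adjusted p = 0.778). Without mutant library 1 the fold change was -0.18. Dsc2 was at 2560 in control library 1 and between 1525 and 1595 in the other controls, with mutants between 1708 and 2309. The other controls thus lay below every mutant, and control library 1 is the control whose low Y-linked level the mutants share. Dsc3 was barely detected, at 0 to 17.4 in controls and 4.28 to 15.9 in mutants, and no fold change is read for it.

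Dsp, the plakin of the plaque, measured 6287, 6322, 6151 and 5912 in controls and 10854, 8895, 6235, 5102 and 5835 in mutants, so mutant libraries 1 and 2 were higher than all controls and libraries 4 and 5 lower (0.20 ± 0.20 SE, limma adjusted p = 0.614). The same 2 mutant libraries had the highest Ivl, a gene of the cornified envelope, at 97286 and 88059 against 25047 to 49415 in controls, without a call (limma adjusted p = 0.308). Of the other squamous markers Sbsn was at 885, 439, 597, 361 and 391 in mutants against 416 to 470 in controls, high in mutant library 1 but not in library 2. Krt1 and Krt10 averaged 145 and 727 in mutants and 193 and 797 in controls, and Krtdap was near 0. Pkp2, the plakophilin of simple epithelia, came nearest to a call: it was at 453, 262, 350 and 420 in controls and at 732, 578, 722, 439 and 582 in mutants, where 4 of 5 mutants exceeded every control (0.72 ± 0.21 SE, limma adjusted p = 0.0917). Pkp1 was at 304 to 970 in controls and 429 to 1303 in mutants. Pkp3, Jup and Perp had log2 fold changes of -0.28, 0.02 and -0.06.

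Other gene lists in the sorted cells gave few calls. Of the other desmosome genes, 4 of 10 were tested and 0 called; the most abundant were Evpl, a cornified envelope plakin, at 10528 ± 3488 (SD, n = 5) in mutants against 8564 ± 293 (n = 4), and Ppl, its partner, at 9176 ± 2019 against 8434 ± 819. Of 10 adherens junction genes 0 were called, with Ctnnb1 (beta-catenin) at 61999 ± 18486 against 40390 ± 1938 and Cdh1 (E-cadherin) at 40875 ± 5809 against 33726 ± 4999. Of 12 keratins only Krt20, a marker of superficial cells, was called, at 2951 ± 1436 in mutants against 808 ± 373 (1.83 ± 0.40 SE, limma adjusted p = 0.0444), and that call was lost in 8 of 9 fits with a library left out, all but mutant library 4 (limma adjusted p up to 0.135), and in 5 of 9 other settings (limma adjusted p up to 0.276). Of 8 regulators 0 were called; Trp63, the basal master factor, was at 20300 ± 5645 against 33210 ± 4137 (limma adjusted p = 0.0835) and Adam10, a sheddase, at 14878 ± 2488 against 14241 ± 1972. Epithelial and basal markers held a call each, and neither list moved as a whole. Epcam was lower in every mutant than in any control, at 7684 ± 1244 against 12503 ± 339 (-0.72 ± 0.12 SE, limma adjusted p = 0.0189), a call lost without control library 2, 3 or 4 and in 3 of 9 other settings (limma adjusted p up to 0.294). Col17a1, a hemidesmosome collagen of basal cells, was at 8780 ± 2547 against 22475 ± 7157 (-1.34 ± 0.27 SE, limma adjusted p = 0.0315), lost in 5 of 9 fits with a library left out, without control library 2, 3 or 4 or mutant library 1 or 3, and in 3 of 9 other settings (limma adjusted p up to 0.636). The other epithelial markers were higher on average in mutants, without a call: Krt8 at 71668 ± 40278 against 36900 ± 7665, Krt18 at 79640 ± 37606 against 56584 ± 9753, and Cdh1 as given above. Summed basal markers, carried by Krt5, were 89398 to 128857 in mutants, below the range of the controls. Krt14, the basal marker that ran the other way, averaged 3600 ± 4429 against 548 ± 157 (1.89 ± 0.77 SE, limma adjusted p = 0.197), with its highest values, 11162 and 3883, in mutant libraries 1 and 2, which also had the highest Dsg3 and Dsp. Superficial markers summed to 187593 to 329109 in mutants. Fibroblast markers were abundant in both groups, though a sort for cells of Krt5-expressing origin should have left such cells out. Their summed level was 11651 to 84707 in controls and 30652 to 217371 in mutants, with 6 of 6 tested, led by Dcn at 21785 ± 19862 in controls and 50118 ± 41342 in mutants. Lum was the 1 called, a call lost in 6 of 9 fits with a library left out. Leukocyte markers, led by Cd74, summed to 1782, 2216, 24354, 14507 and 4834 in mutants against 2246 to 3928 in controls, so that mutant libraries 3 and 4 stood apart from the others. With the mean log2 level of the fibroblast markers as a covariate, a fit chosen after seeing the data, 140 genes and 0 members were called. In it Pkp2 was at 0.65 ± 0.32 SE (limma adjusted p = 0.279) and Dsg2 and Perp, near 0 in either fit, changed sign. Without the covariate Cd68, a leukocyte marker, was higher in every mutant than in any control (0.71). Csf1r and Cd74 were at 1.41 and 1.37 and Ptprc, Cd3e and Lyz2 at -0.10, -0.75 and -0.70, all overlapping. Smooth muscle markers were higher on average in mutants. Des and Myh11 did not overlap (2.40 and 1.41), while Acta2, Cnn1 and Tagln did (2.09, 1.47 and 0.84). None of these genes was called. The part of leukocytes and smooth muscle in the desmosome values was not tested. In bulk samples fewer cells of a type and less RNA per cell cannot be told apart.

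The tumor table asked how luminal tumors of the mutants differ from basal tumors of the controls. Pkp1, the plakophilin of stratified and squamous epithelia, was the 1 member of 10 called, against 2.20% of all genes. It measured 7883, 4501 and 8840 normalized counts in basal tumors and 2510, 1449 and 1010 in luminal tumors, with no overlap (log2 fold change -2.14 ± 0.46 SE, limma adjusted p = 0.0491). The call sits at the threshold: it was lost in each of the 8 fits with a library left out, at adjusted p of 0.0591 to 0.160, while the fold change stayed between -2.49 and -1.83. The call was also lost in 6 of 9 other settings, where its limma adjusted p ran from 0.0415 to 0.620. In luminal domains of the same table Pkp1 was at 5067 and 2506.

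**Figure D2:**
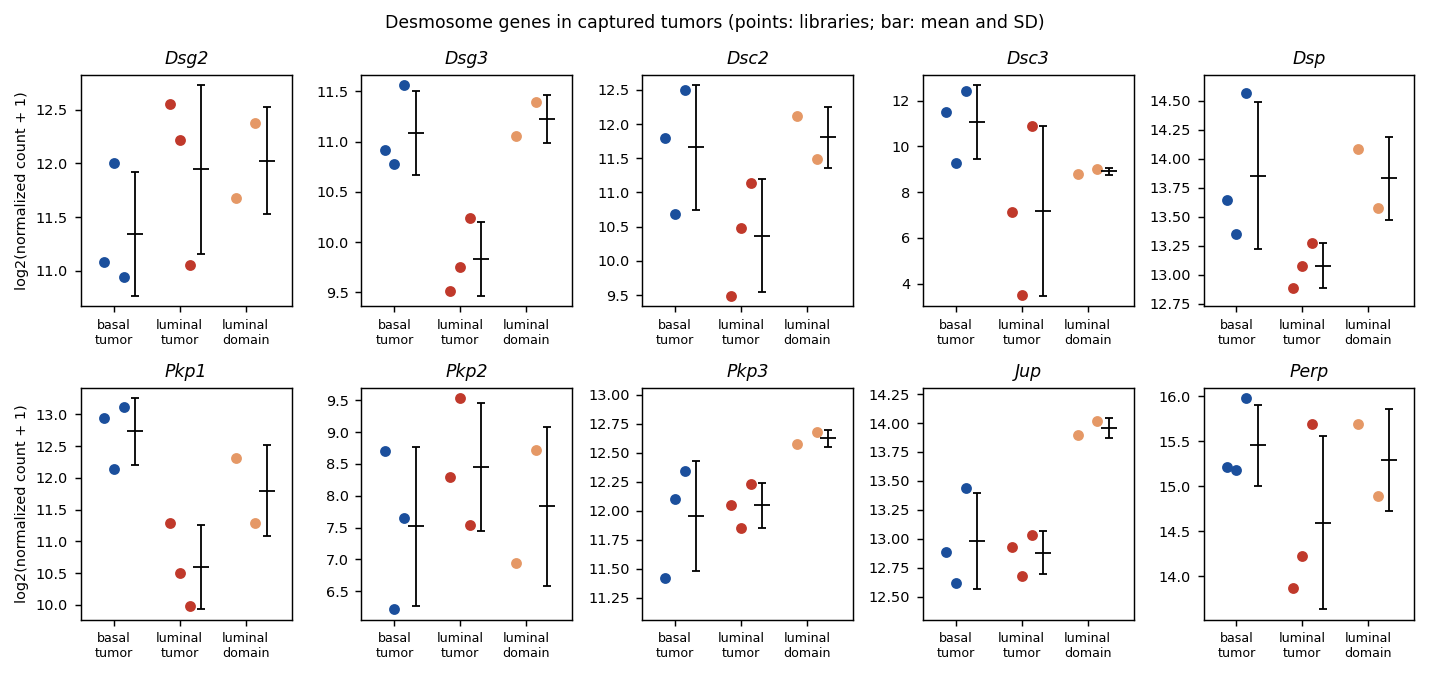
Each panel plots log2(normalized count + 1) of a desmosome gene in 3 basal tumors, 3 luminal tumors and 2 luminal domains, with a panel-specific axis; points are libraries and the bar beside them is the mean and SD. Pkp1, Dsg3 and Dsp are lower in all 3 luminal tumors than in any basal tumor.

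Groups did not overlap for 3 of 10 members, Dsg3, Dsp and Pkp1, where 21.5% of all genes did not. Dsg3 was at 1926, 1752 and 3022 in basal and at 729, 862 and 1206 in luminal tumors (-1.25 ± 0.39 SE, limma adjusted p = 0.135). Dsp was at 12794, 10429 and 24252 against 7571, 8618 and 9882 (-0.78 ± 0.36 SE, adjusted p = 0.289 from limma). Neither passed the test over all genes.

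Dsc3, the desmocollin of basal cells, had the widest range. It was at 2872, 611 and 5465 in basal tumors and at 140, 10.2 and 1911 in luminal tumors. Luminal tumor library 3 thus lay within the basal range while the other luminal tumors lay far below it (-3.88 ± 1.59 SE, limma adjusted p = 0.236). Without that library Dsc3 was called, at a fold change of -5.74 and a limma adjusted p of 0.0409. The same library had the highest summed basal markers of the luminal tumors, 193189 against 67490 and 9162, and the highest Perp, 52711 against 14974 and 19202. Dsc2 was at 3566, 1644 and 5764 in basal tumors and at 717, 1426 and 2261 in luminal tumors (-1.29 ± 0.56 SE, 95% interval -2.54 to -0.035, limma adjusted p = 0.260).

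For Dsg2 and Pkp2 the intervals included 0. Dsg2 measured 2163, 4098 and 1973 in basal tumors and 6010, 4764 and 2130 in luminal tumors, and Pkp2 measured 416, 73.6 and 199 against 313, 737 and 185. Their log2 fold changes were 0.60 and 0.93 with 95% intervals of -0.46 to 1.66 and -1.22 to 3.08. Pkp3 and Jup stood at 0.09 and -0.10. The median of the members was -0.82 against -0.11 over all genes tested, and quantile normalization moved that median of all genes to 0.02.

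Stromal and basal markers moved with the tumor groups, with 2 of 6 fibroblast and 3 of 5 smooth muscle markers called lower in luminal tumors and 0 of 6 leukocyte and 0 of 4 endothelial markers called. Fibroblast markers, led by Col3a1, summed to 66575, 44454 and 62708 in basal tumors and to 805, 212 and 17130 in luminal tumors. Smooth muscle markers, led by Acta2, summed to 41360, 5863 and 47055 against 237, 150 and 1229, with 1 of 5 (Des) at 0 in every luminal tumor. Leukocyte markers, led by Lyz2 in basal tumors, summed to 135121, 112011 and 32001 against 20194, 1074 and 11147, and endothelial markers summed to 1687 to 2748 against 370 to 1793. Basal markers, led by Krt14 in basal and Krt5 in luminal tumors, were lower in luminal tumors for 4 of 4 genes and summed to 280457, 313801 and 648284 against 67490, 9162 and 193189. Of them Col17a1 was called (-3.19 ± 0.58 SE, limma adjusted p = 0.0360), a call lost in 7 of 8 fits with a library left out, all but luminal tumor library 3, and in 5 of 9 other settings (limma adjusted p up to 0.697). The part of basal cell content in the values of Pkp1, Dsg3 and Dsc3 was not tested. Epithelial markers summed to 36770 to 61063 in basal tumors and 144243 to 456262 in luminal tumors, but that sum was carried in luminal tumors by the keratins Krt8 and Krt18. Epcam, an adhesion molecule of epithelia, averaged 15168 ± 6525 (SD, n = 3) in luminal and 17182 ± 8002 in basal tumors, and Cdh1 15319 ± 7393 and 8460 ± 5130, both overlapping, so the list did not move as a whole. With the mean log2 level of the fibroblast markers as a covariate, a fit chosen after seeing the data, 0 of all genes and 0 members were called. The fold change of Pkp1 was then -2.23 ± 0.79 SE, against -2.14 ± 0.46 SE without the covariate. With the covariate Krt17 and Pparg stood at -6.17 ± 1.72 SE and 6.12 ± 1.34 SE. Dsg2, Dsc3, Pkp2, Jup and Perp changed sign, each with an interval that included 0. Summed fibroblast markers did not overlap between the groups, so group and stromal content cannot be fully told apart.

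Of the other desmosome genes 7 of 10 were tested and 0 called, with Ppl at 5405 ± 1919 (SD, n = 3) in luminal tumors against 2874 ± 1438 and Evpl at 2731 ± 1724 against 1022 ± 783. Dsg1a, Dsg1b and Dsg1c are close copies whose reads can be split between them, so their separate levels are uncertain. Among 10 adherens junction genes only Nectin2 was called, higher at 4100 ± 606 against 1180 ± 579 (1.89 ± 0.38 SE, limma adjusted p = 0.0426). Without a call, Ctnnb1 was at 16415 ± 2978 against 10337 ± 2963 and Cdh3 at 112 ± 128 against 1241 ± 267. Neither gene overlapped, as for 21.5% of all genes. Of 12 keratins 3 were called: Krt8 (3.08 ± 0.41 SE) and Krt19 (2.55 ± 0.52 SE), keratins of simple epithelia, rose, and Krt17, a keratin of basal and squamous cells, fell by 7.77 on the log2 scale, with limma adjusted p of 0.0184, 0.0428 and 0.0194. Leaving out a library ended the Krt19 call in 8 of 8 fits (adjusted p up to 0.138) and the Nectin2 call in 6 of 8 (adjusted p up to 0.157). Both were also lost in 5 of 9 other settings, namely without a filter, without a trend, with quantile normalization, without the luminal domains and with the fibroblast covariate (limma adjusted p up to 0.624 and 0.739). The calls of Krt8 and Krt17 were lost in 3 of 8, without basal tumor library 1 or luminal tumor library 1 or 2 (limma adjusted p up to 0.0879), and also without a trend in the fit and with the fibroblast covariate. Of 8 regulators 0 were called, with Trp63 at 2411 ± 1334 against 5724 ± 2717 and Adam10 at 6550 ± 2551 against 5934 ± 2400. Summed squamous markers spread widely within basal tumors, at 29355, 6941 and 165154, against 43739, 87872 and 36268 in luminal tumors, and their genes did not move together. Ivl was called higher in luminal tumors, at 49707 ± 28402 against 2092 ± 2455 (5.36 ± 1.01 SE, limma adjusted p = 0.0364), a call lost in 6 of 8 fits with a library left out, all but basal tumor library 2 and luminal tumor library 3, and in 4 of 9 other settings (limma adjusted p up to 0.623). Krtdap averaged 377 ± 269 against 60486 ± 83109, without a call. Superficial markers, with 3 of 5 called higher, separated the groups at 738 to 8758 against 90648 to 581035.

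**Figure D3:**
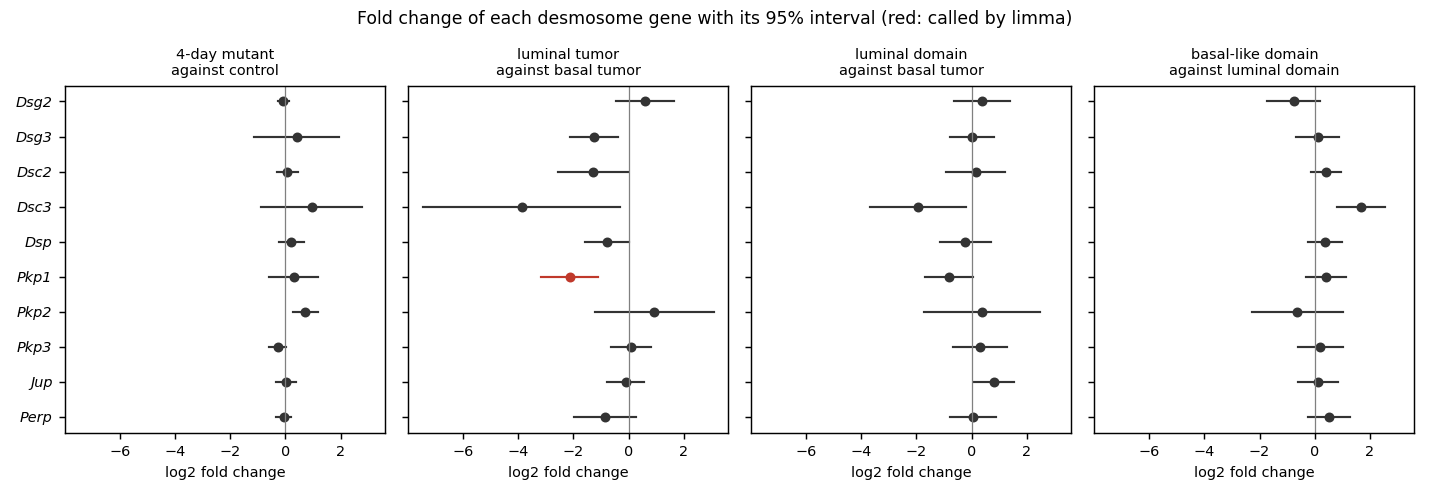
Points are the log2 fold change of each desmosome gene and lines its 95% interval from limma, in 4 comparisons, with genes in rows and the fold change on the horizontal axis; red marks a call. Pkp1 in luminal against basal tumors is the 1 red point, at -2.14.

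Luminal tumors were then set against the luminal domains of the same table, to see whether whole luminal tumors and luminal parts of mixed lesions carry the same desmosome genes. Here 0 of 10 members were called, with 0% of all genes called; at an unadjusted limma p under 0.05 there were 4 members and 761 of 16640 genes. Groups of 3 and 2 libraries did not overlap for 5 of 10 members, Dsg3, Dsc2, Dsp, Pkp3 and Jup, each lower in luminal tumors, where 19.6% of all genes did not overlap. Jup, the shared armadillo protein of desmosomes and adherens junctions, was at 7802, 6552 and 8405 in luminal tumors and at 15236 and 16559 in luminal domains (-1.07 ± 0.34 SE, limma adjusted p = 0.998). Dsg3 was at 2130 and 2685 and Dsp at 17321 and 12230 in the domains.

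Most markers of stroma, leukocytes and basal cells were lower in the same direction, without a call. Log2 fold changes were below 0 for 6 of 6 fibroblast, 4 of 5 smooth muscle, 6 of 6 leukocyte, 4 of 4 endothelial and 4 of 4 basal markers. The median over all genes tested was -0.08. Superficial markers ran the other way, with Krt20, Upk1a, Upk1b, Upk2 and Upk3a at 0.16, 2.47, 0.60, 0.51 and 1.31, all overlapping and uncalled. Fibroblast markers, led by Col3a1, summed to 805, 212 and 17130 in luminal tumors and to 29242 and 5086 in luminal domains. Smooth muscle markers, led by Acta2, summed to 237, 150 and 1229 against 1777 and 1271, without overlap, with Des at 0 in every luminal tumor and Cnn1 at 0 in both domains. Leukocyte markers, led by Cd74, summed to 20194, 1074 and 11147 against 21884 and 19053. Endothelial markers summed to 706, 370 and 1793 against 3533 and 1584, led by Pecam1 in tumors and Emcn in domains. Basal markers summed to 67490, 9162 and 193189, led by Krt5, against 242245 and 146140, led by Krt14. Of these genes Tagln, Cd68, Cd74, Cdh5 and Col17a1 did not overlap, with log2 fold changes of -1.87, -1.76, -1.92, -3.62 and -2.07. Of all genes 19.6% did not overlap. Their part in the desmosome values was not tested.

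Of other desmosome, adherens junction, keratin and regulator genes 0 were called. The most abundant of these lists were Ppl (5405 against 6347) and Evpl (2731 against 2733), Ctnnb1 (16415 against 17097) and Cdh1 (15319 against 15769), Krt19 (170494 against 181911) and Krt15 (187466 against 152431), and Adam10 (6550 against 8447) and Grhl3 (5550 against 3656), as means in luminal tumors and domains.

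Not all of the 5 members lower in each luminal tumor than in either luminal domain have their promoter shown. A promoter left out here is not thereby absent from RefSeq. The promoters shown are those of Dsp and Jup. Each runs from 250 bases before to 50 bases after the annotated start, 5′ to 3′ on the strand of the gene, in RefSeq GRCm38.p6: Dsp at chr13:38151044-38151343 on the plus strand and Jup at chr11:100397741-100398040 on the minus strand. Capitals mark the GC box GGGCGG or its reverse complement CCGCCC, which Sp factors bind, and the E-box CAGGTG of the Snail and Zeb type.
Dsp: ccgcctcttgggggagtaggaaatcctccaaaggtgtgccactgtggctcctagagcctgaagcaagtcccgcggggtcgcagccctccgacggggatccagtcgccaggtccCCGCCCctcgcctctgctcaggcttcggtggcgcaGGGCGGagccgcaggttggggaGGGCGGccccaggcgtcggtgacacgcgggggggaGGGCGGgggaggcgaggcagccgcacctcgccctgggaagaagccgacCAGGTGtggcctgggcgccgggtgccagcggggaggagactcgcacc
Jup: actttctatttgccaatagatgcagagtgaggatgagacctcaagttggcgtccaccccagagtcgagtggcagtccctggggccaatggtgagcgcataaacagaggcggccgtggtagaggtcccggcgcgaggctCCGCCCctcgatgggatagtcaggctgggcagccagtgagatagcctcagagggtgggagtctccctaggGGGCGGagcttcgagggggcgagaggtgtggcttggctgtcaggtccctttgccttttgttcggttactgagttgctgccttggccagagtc
The Dsp window held 4 GC boxes and 1 E-box and the Jup window 2 GC boxes and 0 E-boxes, none overlapping another motif. Both strands were searched, and 35.7% of 32851 promoters held the GC box and 20.2% the E-box. The letters AGGTCA, an element of nuclear receptors, and AACCGG, the grainyhead core, were in neither window and in 16.3% and 6.83% of all promoters. Base composition differed, at 73.0% G and C in Dsp and 60.7% in Jup. A match is a description of letters and not of binding.

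Luminal domains were compared with basal tumors in a further table that shares its 3 basal tumors and 2 of its 3 domains with the tumor table, so its values are not an independent repeat. Of 10 members 0 were called, against 2.53% of all genes, and at an unadjusted limma p under 0.05 there were 2 members and 3072 of 14921 genes. No member separated the groups, where 26.8% of all genes did, and the median of the members was 0.09 against 0.01 over all genes. Dsc3 was at 2958, 618 and 5565 in basal tumors and at 466, 549 and 702 in the domains, which lay close together and overlapped only basal tumor library 2 (-1.94 ± 0.75 SE, limma adjusted p = 0.203). Without that basal tumor Dsc3 was called, at -2.84 and a limma adjusted p of 0.0305. Jup was at 7933, 6451 and 11453 against 16156, 17787 and 11151 (0.82 ± 0.31 SE, adjusted p = 0.198 from limma). Dsg3 was at 2032, 1812 and 3152 against 2280, 2911 and 1772, overlapping, and Pkp1 was at 8316, 4656 and 9221 against 5424, 2717 and 4519 (-0.81 ± 0.38 SE, limma adjusted p = 0.276). Dsg2, Dsc2, Dsp, Pkp2, Pkp3 and Perp had log2 fold changes between -0.23 and 0.38.

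In that comparison 0 of 10 adherens junction genes, 0 of 7 tested other desmosome genes and 0 of 8 regulators were called. Their most abundant genes were Ctnnb1, at 17848 ± 1824 (SD, n = 3) in domains against 10853 ± 3061, Cdh1 at 16410 ± 1157 against 8786 ± 5249, Ppl at 5957 ± 2235 against 2999 ± 1492, Pkp4 at 1783 ± 185 against 1928 ± 892, Adam10 at 7678 ± 2528 against 6181 ± 2444 and Trp63 at 3451 ± 684 against 6056 ± 2867. Of 12 keratins only Krt19 was called higher (2.65 ± 0.47 SE, limma adjusted p = 0.0351) and only Krt17 lower (-5.49 ± 0.91 SE, adjusted p = 0.0316 from limma). Both calls were lost in 5 of 6 fits with a library left out, all but basal tumor library 2 (limma adjusted p up to 0.138). They were also lost without a trend and with the fibroblast covariate. Fibroblast markers summed to 31289, 5517 and 5011 in domains against 45948 to 70263. Smooth muscle markers summed to 1393 to 1911 against 6123 to 49561. Of the latter Acta2, Cnn1 and Tagln were called lower in domains (limma adjusted p = 0.0468, 0.0371 and 0.0496). With the fibroblast covariate 0 of all genes were called, Dsc3 was at -2.14 ± 1.36 SE and Jup at 0.97 ± 0.56 SE, and Dsg3, Dsp and Pkp2 changed sign with intervals that included 0. Of basal markers Krt14, Trp63 and Col17a1 were lower in domains without overlap (-1.18, -0.73 and -0.93), and Krt5 overlapped (-0.62). Of leukocyte markers Ptprc and Lyz2 were lower without overlap (-2.51 and -2.39). Csf1r was at -1.72 and Cd3e, Cd68 and Cd74 at 1.06, 0.53 and 0.44, all overlapping. No basal or leukocyte marker was called. The part of smooth muscle, basal and leukocyte content was not tested.

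The last comparison asked what changes between the basal-like and the luminal domain of mixed lesions, and again 0 of 10 members were called, with 0% of all genes called. At an unadjusted limma p under 0.05 there were 1 member and 757 of 14874 genes. The fit was unpaired. The column codes of the domains run in consecutive pairs of a luminal and a basal-like library, but the labels tie no luminal library to a basal-like one. A paired fit would have had to assume that these pairs are lesions, and it was not run. The member at an unadjusted p under 0.05 was Dsc3, at 397, 473 and 605 in luminal domains and at 1196, 2149 and 1447 in basal-like domains. It was the 1 of 10 members whose groups did not overlap, where 10.8% of all genes did not (1.68 ± 0.38 SE, limma adjusted p = 0.651). With each library left out in turn its fold change was between 1.44 and 1.86, and in no alternative run was its adjusted p under 0.204.

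**Figure D4:**
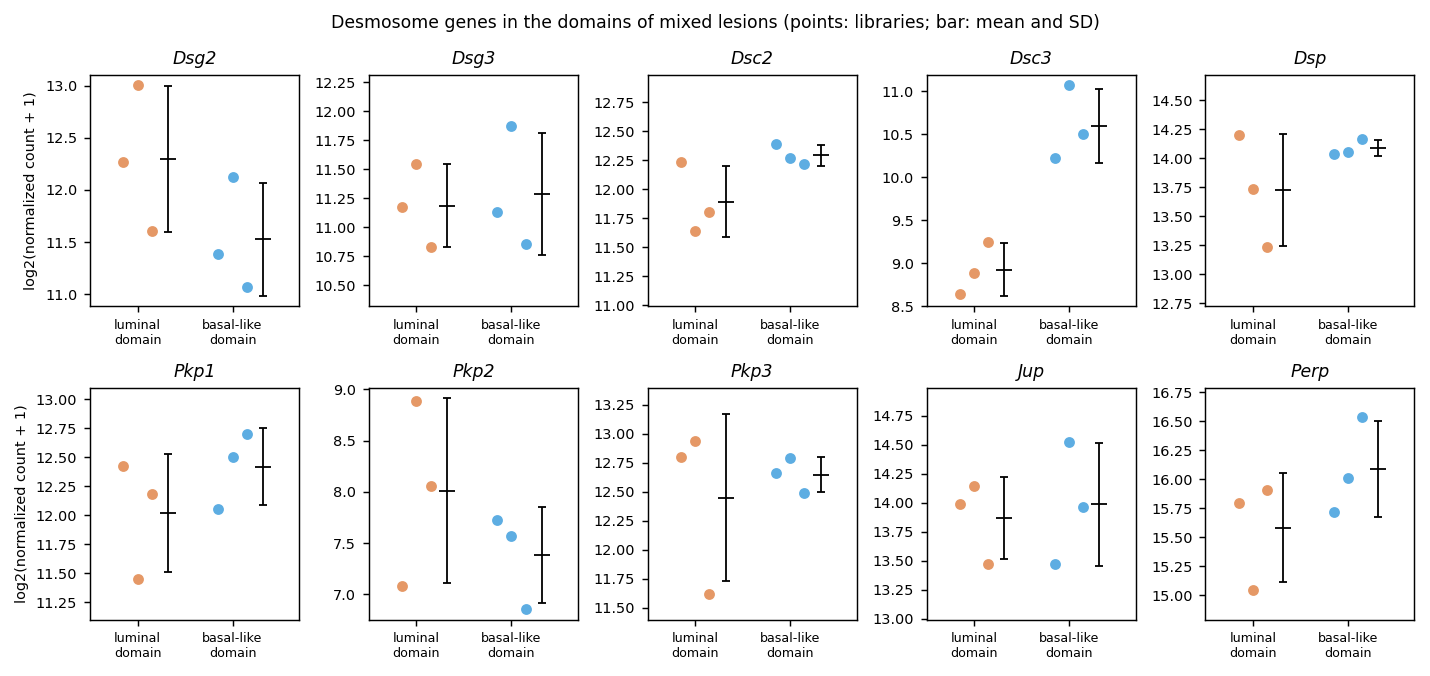
Each panel plots log2(normalized count + 1) of a desmosome gene in 3 luminal and 3 basal-like domains of mixed lesions, with a panel-specific axis; points are libraries and the bar beside them is the mean and SD. Dsc3 is the 1 panel without overlap, from 397 to 605 against 1196 to 2149 normalized counts.

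The remaining members overlapped between the domains. Dsg2 was at 4923, 8228 and 3123 in luminal and at 2673, 4465 and 2147 in basal-like domains (-0.77 ± 0.41 SE, limma adjusted p = 0.935). Dsc2 was at 4817, 3199 and 3567 against 5383, 4950 and 4754, and Perp at 57026, 33716 and 61625 against 54047, 66082 and 95051. Dsg3 was at 2314, 2992 and 1819 against 2244, 3747 and 1851, close between the domains. Pkp1 was at 5500, 2791 and 4637 against 4249, 5784 and 6660. Jup, Dsp, Pkp2 and Pkp3 had log2 fold changes of 0.12, 0.36, -0.63 and 0.20. In column order Dsg2 was lower and Dsc2 higher in the basal-like library of every consecutive pair, while Dsg3, Pkp1 and Perp went both ways. Whether these pairs share a lesion is unknown, and differences within them were not tested. The median of the members was 0.28 against 0.01 over all genes tested. Pparg was at 5427, 5086 and 4116 in luminal and 3230, 2902 and 2326 in basal-like domains, without a call (limma adjusted p = 0.864).

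No gene of the 4 other lists was called between the domains. The most abundant were Ppl (6579 ± 1875 in basal-like against 6110 ± 2246, SD, n = 3) and Evpl (2151 ± 219 against 2687 ± 1240), Ctnnb1 (14346 ± 4336 against 18849 ± 1790) and Cdh1 (14640 ± 1671 against 16721 ± 1206), Krt15 (283003 ± 221552 against 246152 ± 138493) and Krt7 (154664 ± 14842 against 223950 ± 30172), and Adam10 (7865 ± 3376 against 7851 ± 2551) and Zdhhc5 (4240 ± 346 against 4849 ± 1473). Superficial markers summed to 28048 to 77411 in basal-like and to 51513 to 308772 in luminal domains, and fibroblast markers to 104068, 17153 and 13859 against 32313, 5769 and 5225, led by Col3a1. With the fibroblast markers as a covariate Dsc3 was at 2.0 ± 0.45 SE, against 1.68 without it, and was not called (limma adjusted p = 0.204, against 0.651). Basal markers were higher on average in basal-like domains, with Krt14, Krt5, Trp63 and Col17a1 at 0.81, 0.60, 0.49 and 0.11, all overlapping. Among leukocyte markers Cd3e was higher there without overlap (1.46). Ptprc, Csf1r and Cd74 were also higher on average and Cd68 and Lyz2 lower (-0.76 and -0.11), all overlapping. None of these genes was called. The part of superficial, basal and leukocyte content in the Dsc3 difference was not tested.

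Ratios of paired family members do not depend on the scaling of a library, apart from factors that differ between genes. They are log2 ratios of normalized counts, not corrected for transcript length, so only their differences between groups are read, without a test. How often ratios of other gene pairs do not overlap was not taken, so a lack of overlap is a description here. In basal tumors the ratio of Pkp1 to Pkp2 was 5.21 ± 0.87 (SD, n = 3) and in luminal tumors 2.14 ± 1.05, without overlap. In the same tumors Dsg3 to Dsg2 was -0.26 ± 0.92 and -2.11 ± 1.15 and Dsc3 to Dsc2 -0.60 ± 0.72 and -3.19 ± 3.45, both overlapping. Dsc3 to Dsc2 was at -0.64 ± 0.72 in basal tumors and -2.72 ± 0.55 in luminal domains of their table, also without overlap, and at -2.97 ± 0.55 in luminal against -1.70 ± 0.48 in basal-like domains. In the table of luminal domains and basal tumors Dsg3 to Dsg2 was -0.84 ± 0.34 in domains and -0.46 ± 0.92 in tumors, and Pkp1 to Pkp2 4.02 ± 1.39 and 5.2 ± 0.87, both overlapping. Between the domains Dsg3 to Dsg2 was -1.11 ± 0.34 in luminal and -0.24 ± 0.02 in basal-like domains, without overlap, while Pkp1 to Pkp2 was 4.01 ± 1.39 and 5.03 ± 0.76 and overlapped. All 3 ratios overlapped between luminal tumors and luminal domains of their table. In the sorted cells Dsg3 to Dsg2 was -7.27 ± 0.12 in controls and -6.78 ± 1.58 in mutants and Pkp1 to Pkp2 was 0.50 ± 0.43 and 0.08 ± 0.64, both overlapping.

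**Figure D5:**
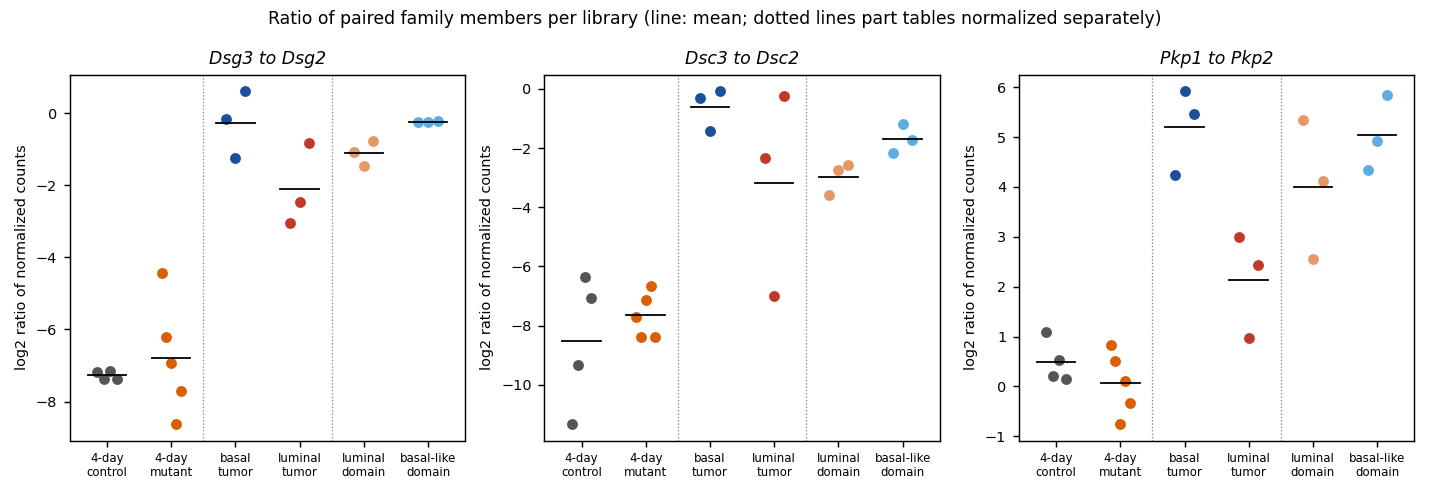
The log2 ratio of normalized counts of each pair is plotted per library (points) with the group mean (line), for sorted cells, tumors and domains; dotted lines separate tables that were normalized on their own. Pkp1 to Pkp2 falls from a mean of 5.21 in basal to 2.14 in luminal tumors.

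The 4 cadherin members lie in a single cluster on chromosome 18, where RefSeq lists 9 protein-coding genes from Dsc3 to Dsg2, namely these 4 and 5 of the other desmosome genes (Dsc1, Dsg1a, Dsg1b, Dsg1c and Dsg4). The other 6 members are on 6 further chromosomes. Between luminal and basal tumors Dsg3, Dsc2 and Dsc3 had fold changes of -1.25, -1.29 and -3.88 and Dsg2 of 0.60.

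Genes other than the members were ranked by likeness to 2 means of members over the 8 libraries of the tumor table, among 11760 genes. The mean log2 level of Dsg3, Dsc3 and Pkp1 was followed most closely by Rhoc, a small GTPase, Acta2, smooth muscle actin, and Slc43a3, a membrane transporter, with Pearson r of 0.995, 0.985 and 0.983. Acta2 averaged 18916 normalized counts in basal tumors, 410 in luminal tumors and 998 in luminal domains, and it is 1 of the smooth muscle markers given above. The mean of Dsg2, Dsc2 and Pkp2 was followed by Ppp2r2d, Ginm1 and Trmu, with r of 0.983, 0.976 and 0.958. Within groups Pkp1 had an r of -0.27 with Dsg3 and -0.05 with Dsc3, while Dsg3 and Dsc3 had an r of 0.63 with each other. The r of Pkp1 with the first mean was not taken within groups, so that mean is not read as a pattern of Pkp1 there. Dsg2 and Dsc2 ran in opposite directions over these libraries (r of -0.71), so the second mean describes neither of them, and no likeness to a member is read from it. These libraries fall into 3 groups, so the values describe likeness of pattern and carry no p.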

How the data were processed

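The authors quantified reads with kallisto, summed transcript estimates per gene with tximport and normalized each table with DESeq2; the submitters' processing notes name kallisto 0.44.0, DESeq2 1.18 and bcl2fastq 2.20. These normalized counts, the deposited signal, carry factors that differ between genes, so whole reads could not be recovered. The paper states a targeted depth, but the depth each library reached is unknown. In each of 5 tables, log2(normalized count + 1) was fitted with limma 3.58.1 in R 4.3.3 (lmFit, eBayes with a trend, two-sided), after keeping genes with at least 10 normalized counts in as many libraries as the smaller group, with Benjamini-Hochberg adjustment over all genes tested. A log-scale test replaced the authors' count test because the values are not counts. The fit was tested on simulated data, but the outcome is not given here and no call rests on it. Columns were tied to groups, not to replicate numbers.

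The members and lists were chosen with earlier results of these data known. Named were all members; of each list the called genes (at most 4, by p) or else the 2 with the highest mean; and the 3 genes most correlated with each of 2 member means, leaving out members, predicted genes and genes averaging under 100. Markers of epithelium, basal, superficial and squamous cells, fibroblasts, smooth muscle, leukocytes and endothelium and Y-linked genes were summed per library. Single markers were named after their values were seen. A table of untreated and BBN-treated urothelium, with 8 columns not tied to groups, was not analysed here. The authors' lists of fold changes and p-values were not used. Alternatives were another pseudocount, no filter, no trend, array weights, other scalings, covariates, other groupings and leaving out each library; the covariate of fibroblast markers, and all alternatives for luminal tumors against luminal domains and for the ratios, the median without Dsc3 and the log2 scale for libraries far from their group were added after seeing the data.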

Additional observations from a re-analysis of the deposited data

Results flagged for a closer look

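Among 20 groups of 4 or 5 sorted libraries tested for a library far from the rest, 3 had one, where chance gives about 1 in 20. Dsg3 was at 560 normalized counts in mutant library 1, with the next mutant at 165. Dsc2 was at 2560 in control library 1, with the next control at 1595. That library is also the control with the low Y-linked level of the mutants. Dsc2 was also at 2309 in mutant library 5, with the next mutant at 1798. These are gaps on the scale of normalized counts; on the log2 scale of the fold changes 2 of 20 groups remained, both of Dsc2, and Dsg3 did not pass.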

How the results depend on the processing

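No paired analysis was possible because the columns carry no replicate numbers; consecutive column codes of the domains are no label of a shared lesion. Genes called at 4 days numbered 467, and 269 without a trend, 1054 with array weights, 147 in the smaller table, 25 with the Y-linked covariate and 140 with the fibroblast covariate (129 to 596 with a library left out). For luminal against basal tumors 338 became 52 without a filter, 142 without a trend, 142 without the domains, 513 pooled with them and 0 with the fibroblast covariate (3 to 813 with a library left out); the members called went from 1 to 0 in each of these and with array weights, and were 0 to 1 with a library left out. For luminal domains against basal tumors 377 became 144 without a filter, 107 without a trend and 0 with the fibroblast covariate (0 to 467, members 0 to 1, with a library left out). Between domains 0 became 20 without a trend. Luminal tumors against luminal domains gave 0 to 1 with a library left out.

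Of all these changes the cause was not tested. Uncalled members changed sign as follows. At 4 days Dsg3 was -0.11 and Jup -0.086 with array weights, Jup -0.00324 with upper-quartile scaling and -0.056 with quantile normalization, Dsc2 -0.46 and Pkp1 -0.56 with the Y-linked covariate, and Dsg2 0.041, Perp 0.14 and Dsc3, too low to be read, -1.10 with the fibroblast covariate. With libraries left out Jup ran from -0.051 to 0.12, Dsc2 from -0.0095 to 0.24 and Dsg3 from -0.18 to 0.87. For luminal against basal tumors Pkp3 was -0.073 with quantile normalization, Jup 0.33 pooled, and with the fibroblast covariate Dsg2 -0.56, Dsc3 0.91, Pkp2 -0.71, Jup 0.063 and Perp 0.46; with libraries left out Pkp3 ran from -0.18 to 0.28 and Jup from -0.28 to 0.13. For luminal domains against basal tumors upper-quartile scaling gave Dsg3 -0.14, Dsc2 -0.0068 and Perp -0.11, quantile normalization Dsg3 -0.12, and the fibroblast covariate Dsg3 -0.028, Dsp 0.35 and Pkp2 -0.37; with libraries left out the ranges were Dsg3 -0.17 to 0.25, Perp -0.12 to 0.32, Dsc2 -0.35 to 0.56, Pkp2 -0.28 to 0.97 and Dsp -0.48 to 0.13. Between domains Pkp3 was -0.063 with the fibroblast covariate, and with libraries left out Dsg3 ran from -0.19 to 0.32, Pkp3 from -0.22 to 0.44 and Jup from -0.15 to 0.38. For luminal tumors against luminal domains Pkp2 ran from -0.26 to 1.50, Dsc3 from -3.60 to 0.11 and Dsg2 from -0.43 to 0.36.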
